A study of Mus musculus with 45 samples.

Results

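The 4 mouse tropomyosin genes, Tpm1, Tpm2, Tpm3 and Tpm4, were followed at the level of single transcripts through the conversion of fibroblasts into muscle cells. The genes were taken by symbol, and every annotated transcript of theirs was kept, which gave 45 transcripts out of 121018 that could be placed in a gene. For each transcript the share of its gene was computed, that is, its TPM (a level scaled to the library and corrected for transcript length) divided by the summed TPM of all transcripts of that gene. An isoform was named where its mean share reached 5% in at least 1 of the 13 unsorted groups. This held for 16 isoforms, 6 of Tpm1, 4 of Tpm2, 5 of Tpm3 and 1 of Tpm4. None of the other transcripts passed a mean share of 4.77%, and 38 of the 45 passed the filter on low counts and were tested.

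Bulk poly-A RNA-seq had been done on 45 libraries in 15 groups of 3. All cells were labelled with the genotype Tg:Pax7-nGFP/C57BL6;DBA2, a nuclear GFP reporter of Pax7, the transcription factor of muscle stem cells. Mouse embryonic fibroblasts (MEFs) also carried a doxycycline-inducible MyoD, the transcription factor that turns fibroblasts into muscle. Untreated MEFs were sampled, as were MEFs after 2, 4, 6, 8 and 10 days of doxycycline (MyoD alone, labelled myotubes) and MEFs after the same times of doxycycline with the small molecules that the labels abbreviate as F/R/C (labelled muscle fibres and progenitor cells). The references were bulk induced myogenic progenitor cells (iMPCs), which the labels describe as kept in F/R/C medium after 13 days of doxycycline with F/R/C and the design text as dox-independent clones, and untreated bulk primary myoblasts from skeletal muscle. Pax7-GFP-positive iMPCs and Pax7-GFP-positive myoblasts had been purified by cell sorting, and their files were made with another fragment-length setting (length minus effective length plus 1 of 180.03 bases against 152.81 bases in the unsorted libraries), so sorted libraries are compared only with each other. Nothing in the labels says whether the 3 libraries of a group came from separate animals or cultures, so p-values measure the spread between these libraries, which may be technical.

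Library totals ran from 15643670 to 36279316 estimated reads with a median of 22103866. The estimated reads per library ran from 6942 to 78894 for Tpm1, from 8554 to 94848 for Tpm2, from 3670 to 18274 for Tpm3 and from 772 to 24011 for Tpm4. The muscle label of the treated groups was checked on the summed TPM of 6 myotube markers (Myog, Ckm, Acta1, Ttn, Actn2, Mylpf), which was 80.6 to 146.5 in MEFs and at least 8091 in every library with MyoD. The library of bulk primary myoblasts numbered 3 stood apart, with a sum of 919.5 against 25120 and 13480 in the other two.

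Tropomyosins are coiled-coil proteins that lie end to end along actin filaments. In the sarcomere, the contractile unit of muscle, they act with troponin to open and close the myosin-binding sites of the thin filament, and in other cells they line the actin of stress fibres. Each gene makes several proteins from alternative first exons, alternative internal exons and alternative last coding exons. The striated-muscle last exon carries the end of the protein that overlaps the next tropomyosin and meets troponin T, while the cytoplasmic last exon is the one used in fibroblasts and smooth muscle.

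The sequences on which the switch rests are the alternative last coding exons of Tpm1, Tpm2 and Tpm3, shown here because the striated and cytoplasmic isoforms of each gene end in them. They were read from the GENCODE M21 transcripts (GRCm38) and are given 5′ to 3′ on the coding strand, with capitals at the bases that differ from the other last exon of the same gene when both are laid side by side from their 5′ ends, and without stop codon or untranslated sequence. The striated exons are those of Tpm1-205, Tpm2-202 and Tpm3-205, and the cytoplasmic ones those of Tpm1-213, Tpm2-203 and Tpm3-201.
Tpm1 striated, chr9:67029664-67029742, minus strand: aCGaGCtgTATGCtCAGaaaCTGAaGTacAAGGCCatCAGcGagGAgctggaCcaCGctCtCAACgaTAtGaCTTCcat
Tpm1 cytoplasmic, chr9:67023362-67023441, minus strand: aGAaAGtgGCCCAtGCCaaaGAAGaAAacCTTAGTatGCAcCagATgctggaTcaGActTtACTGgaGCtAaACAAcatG
Tpm2 striated, chr4:43515924-43516003, minus strand: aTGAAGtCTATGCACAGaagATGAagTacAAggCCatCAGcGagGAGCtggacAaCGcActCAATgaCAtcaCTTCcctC
Tpm2 cytoplasmic, chr4:43514782-43514861, minus strand: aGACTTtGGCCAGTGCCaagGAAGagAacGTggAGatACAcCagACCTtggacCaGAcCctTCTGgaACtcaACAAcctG
Tpm3 striated, chr3:90091013-90091091, plus strand: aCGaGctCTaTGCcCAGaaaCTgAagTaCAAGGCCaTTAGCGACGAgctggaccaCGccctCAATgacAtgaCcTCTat
Tpm3 cytoplasmic, chr3:90099528-90099607, plus strand: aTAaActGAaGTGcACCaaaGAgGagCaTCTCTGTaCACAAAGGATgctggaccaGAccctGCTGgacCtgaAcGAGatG

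The striated exon of a gene was closer to the striated exons of the other genes than to its own cytoplasmic partner. Striated and cytoplasmic exons of 1 gene shared 34 of 79 bases in Tpm1, 33 of 80 in Tpm2 and 36 of 79 in Tpm3. Between genes, the striated exons were identical at 83.5% of bases for Tpm1 and Tpm2, 88.6% for Tpm1 and Tpm3, and 82.3% for Tpm2 and Tpm3. The cytoplasmic exons were less alike, at 60% to 71.2%. An exact match of the letters showed that Tpm2-202 and Tpm3-202, both striated by their reading frame, also carry all letters of the cytoplasmic exon, in Tpm2-202 behind the end of the reading frame and in Tpm3-202 with the frame ending at its start, so reads in that exon do not separate these isoforms from the cytoplasmic ones. In Tpm3 the first coding exon is alternative as well, and the distal form begins the long muscle-type protein while the internal form begins the short cytoplasmic one.

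**Figure D1:**
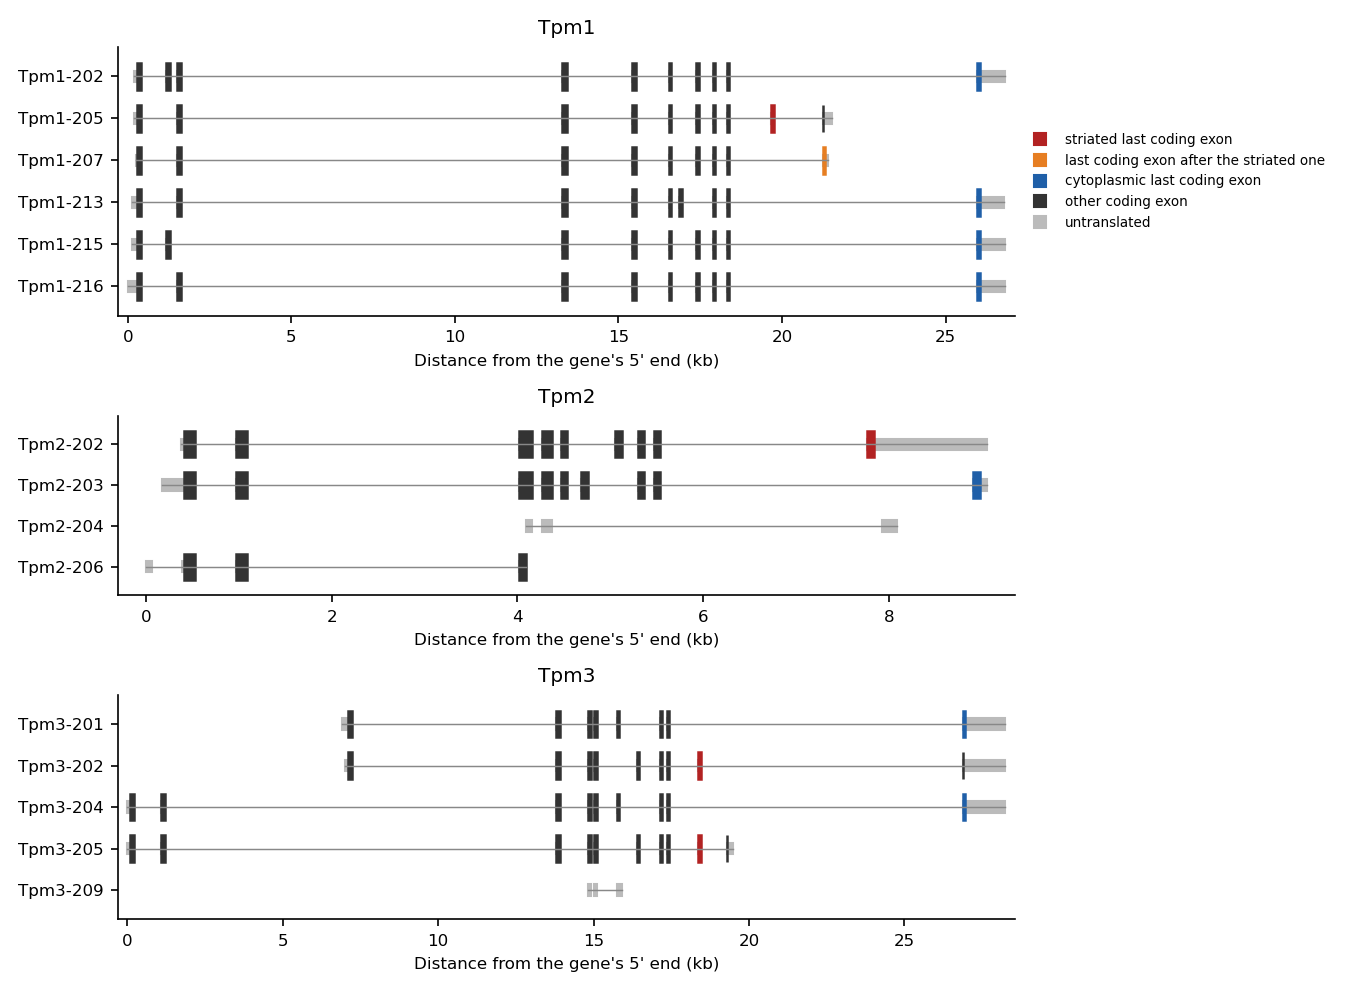
Exon structure of the named isoforms of Tpm1, Tpm2 and Tpm3, with position along the gene in kilobases from its 5′ end on the horizontal axis and 1 isoform per row. Thick boxes are coding and thin boxes untranslated parts, and the colours mark the alternative exons, so that striated isoforms (red) and cytoplasmic isoforms (blue) can be told apart. In Tpm1-205, Tpm3-202 and Tpm3-205 a short coding end follows in the next exon, and Tpm2-204 and Tpm3-209 have no coding part.

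Tpm1 encodes α-tropomyosin. Its isoform Tpm1-205 joins the distal first exon to the striated last exon and is the sarcomeric α-tropomyosin, whereas Tpm1-213, Tpm1-215 and Tpm1-216 end in the cytoplasmic exon. Tpm1-213 carries the upstream and Tpm1-216 the downstream copy of the alternative internal exon, and Tpm1-215 carries the upstream second exon typical of smooth muscle. In MEFs, the transcripts with the striated last exon held 4.77%, 4.10% and 4.24% of Tpm1, and those with the cytoplasmic one 80.7%, 81.1% and 75.8%. The cytoplasmic form was by far the larger part in all 3 fibroblast libraries.

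After 2 days of MyoD the striated share of Tpm1 was 44.6%, 58.1% and 47.0%, and after 2 days of MyoD with F/R/C it was 43.7%, 58.3% and 46.2%. Every treated library lay above every MEF library, and the routes overlapped. By the edgeR usage test, which takes a transcript's reads relative to all reads of its gene, Tpm1-205 rose by 4.55 ± 0.48 (log2, SE) with MyoD alone (adjusted p = 1.4e-07) and by 4.54 ± 0.48 with F/R/C (adjusted p = 1.5e-07) against MEFs. Among the tropomyosin transcripts 8 of 38 were called with MyoD alone on day 2, 6 higher and 2 lower, where 1.62% of all transcripts were called. With F/R/C 7 of 38 were called, 6 higher and 1 lower, where 1.36% of all transcripts were. In both routes the higher ones included the short transcripts Tpm2-204 and Tpm2-206, whose limits are given below. The calls on Tpm2-204, Tpm2-206, Tpm2-203 and Tpm1-207 were each lost in at least 2 of the 3 fits that left out a replicate. In level, that is, in reads relative to the library and not to the gene, 7 of 38 were called on day 2 in each route, where 9.46% of all transcripts were called with MyoD alone and 8.26% with F/R/C. A call needed an adjusted p under 0.05 and a change of at least 2-fold.

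From day 4 the libraries of the routes lay apart in the striated share of Tpm1. With MyoD alone the striated share of Tpm1 was 33.2%, 55.7% and 43.2% on day 4 and 28.3%, 61.9% and 26.7% on day 10. With F/R/C it was 70.3%, 84.7% and 80.8% on day 4 and 62.4%, 73.6% and 82.3% on day 10. The F/R/C libraries were higher than those of MyoD alone without overlap on days 4, 6, 8 and 10, while on day 2 the groups overlapped. In the share of the single isoform Tpm1-205 the F/R/C libraries were higher without overlap on 3 of the 5 days and overlapped on 2. How many of all transcripts or genes lie apart in this way was not counted. The lowest p that an exact two-sided permutation of 3 against 3 libraries can give is 0.1. Lack of overlap is therefore only a description wherever it is given. Averaged over the 5 days the striated share was 28.6 percentage points higher with F/R/C.

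The spread within MyoD alone was wide, and replicate 2 was the high library on all 5 days. The summed TPM of 6 fibroblast markers (Thy1, Pdgfra, Col1a1, Col1a2, Dcn, Lum) was lowest in that replicate of MyoD alone on all 5 days. On day 10 that sum was 4304, 1067 and 4553 with MyoD alone and 709.6, 251.2 and 1511 with F/R/C. In MEFs it was 5585 to 6311. With F/R/C on day 10, by contrast, replicate 3 had both the highest fibroblast sum and the highest striated share. All 6 markers were above 0 in these groups, but they did not move together. On day 10 mean TPM was higher with MyoD alone than with F/R/C for Thy1 (1382 against 324.2), Col1a1 (1075 against 295.4) and Col1a2 (830.6 against 133.7). It was lower with MyoD alone for Dcn (10.02 against 39.14), Lum (1.855 against 21.36) and Pdgfra (8.036 against 10.1). In MEFs Dcn, Lum and Pdgfra were at 185.4, 60.87 and 87.83. The myotube sum on day 10 was 12410, 25030 and 8091 with MyoD alone and 9802, 12820 and 16500 with F/R/C. The part of these marker levels in the shares was not tested, and in bulk RNA fewer cells of a type and less RNA per cell cannot be told apart. In MyoD alone replicate 2 on day 10 the striated share was 61.9%, the fibroblast sum 1067 and the myotube sum 25030. The lowest striated share with F/R/C on that day was 62.4%. From 1 library no conclusion is drawn on the part of the markers.

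**Figure D2:**
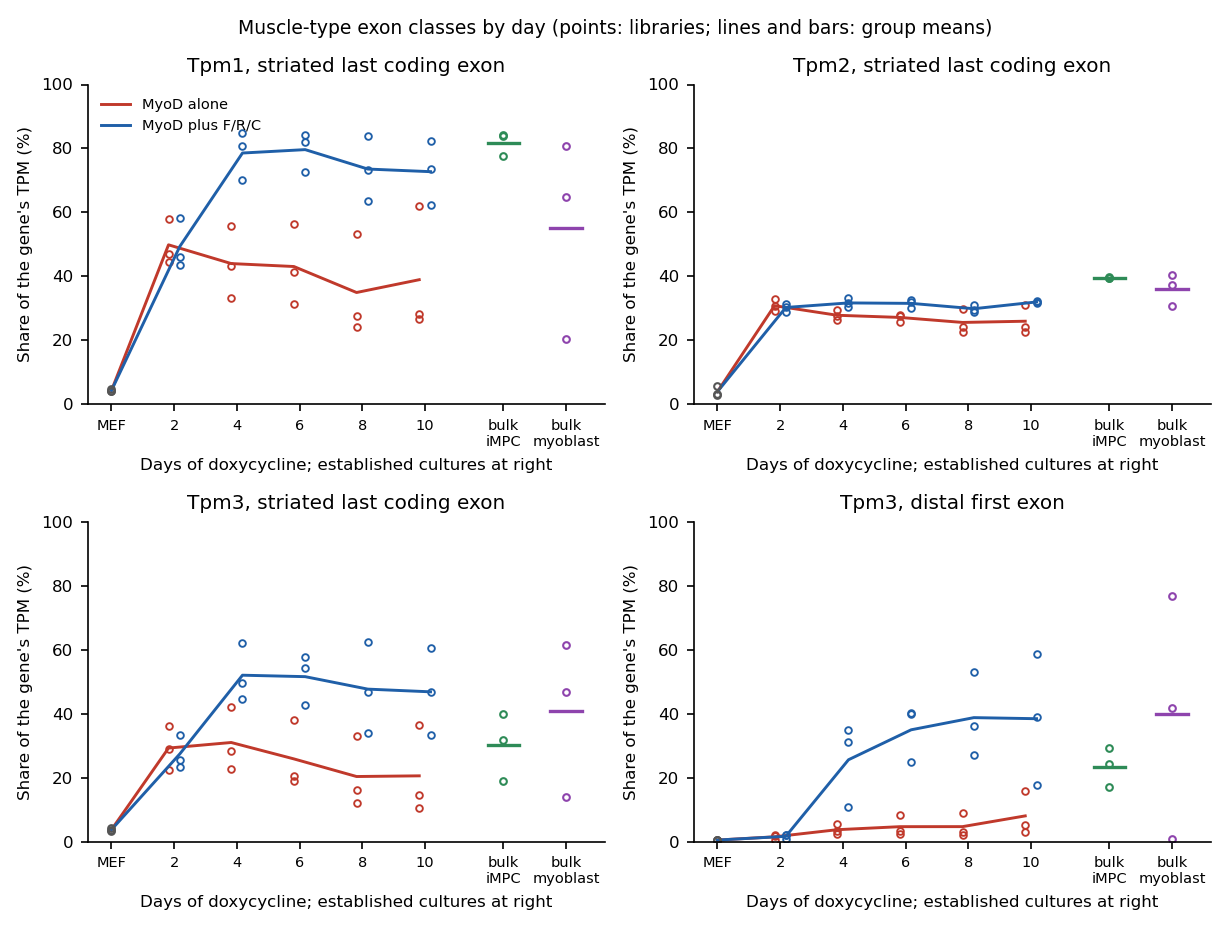
Share of each gene's TPM held by transcripts of an exon class (percent, vertical axis) against days of doxycycline (horizontal axis), with 1 point per library a line through the mean of 3 libraries, and a bar at the mean of bulk iMPCs and of bulk myoblasts. MyoD alone and MyoD with F/R/C overlapped on day 2, and for the striated last exon of Tpm1 and the distal first exon of Tpm3 the F/R/C libraries lay above those of MyoD alone of the same day from day 4 to day 10.

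Tested over the mean of the 5 days, the usage of Tpm1-205 was 0.89 ± 0.19 (log2, SE) higher with F/R/C (adjusted p = 0.0041), which is under the 2-fold limit and so was not counted as a call. Of the 38 tropomyosin transcripts 4 were called in this comparison, 2 higher and 2 lower, where 1.33% of all transcripts were. The 2 lower ones belong to Tpm1. Tpm1-215, the isoform with the smooth-muscle second exon, fell by 1.26 ± 0.30 (adjusted p = 0.013). Tpm1-202, which the annotation gives both second exons, fell by 4.11 ± 1.00 (adjusted p = 0.020) from shares that stayed under 1% in all libraries of MyoD alone, so its fold rests on few reads, and the call was lost without any of the 3 replicates in turn (adjusted p from 0.066 to 1). The 4 calls depended on the libraries: without replicate 1 of every group 5 tropomyosin transcripts were called, without replicate 2 there were 3 and without replicate 3 none. The call on Tpm1-215 was lost without replicate 2 (adjusted p = 0.14), without replicate 3 (log2 -0.85, adjusted p = 0.40) and with diffSpliceDGE (adjusted p = 0.11).

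No tropomyosin transcript was called between the routes on day 2, where 0.00546% of all transcripts were, and none of the 38 had an unadjusted p under 0.05. None was called on day 10 either, where 0.0874% of all transcripts were, although 12 of the 38 had an unadjusted p under 0.05. On day 10 the usage of Tpm1-205 differed by 1.08 ± 0.42 (adjusted p = 0.48). The change of the F/R/C effect from day 2 to day 10 gave no tropomyosin call, where 0.0146% of all transcripts were called, and 4 of 38 had an unadjusted p under 0.05. limma voom with diffSplice called 0 on day 2, 4 on day 10 and 2 for the change of the effect, and edgeR diffSpliceDGE called 0, 2 and 0. In level none was called on day 2 or for the change of the effect, where 0.685% and 0.216% of all transcripts were, with 2 and 5 of 38 at an unadjusted p under 0.05 and 0 by limma voom in both.

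The cytoplasmic isoforms of Tpm1 did not all behave alike. Tpm1-213 held 35.8%, 36.8% and 27.1% of Tpm1 in MEFs. With MyoD alone on day 10 it still held 27.5%, 10.6% and 25.5%. With F/R/C on day 10 it held 6.997%, 1.70% and 0%, and it was lower with F/R/C, without overlap, on 4 of the 5 days. Its usage was 2.26 ± 0.73 (log2) lower with F/R/C over the 5 days (adjusted p = 0.086), which did not pass the test. Its level relative to all genes fell by 2.37 (log2, adjusted p = 0.021), a call that was lost without replicate 2 (adjusted p = 0.19) and without replicate 3 (adjusted p = 0.064).

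Tpm1-215 held 19.3%, 17.9% and 15.5% of Tpm1 in MEFs. After 2 days of MyoD alone it held 6.41%, 3.16% and 5.18%, and after 8 days 15.1%, 10.1% and 24.2%, so that the day 8 libraries lay above those of day 2. With F/R/C the means stayed between 2.83% and 5.48% on all 5 days. In bulk iMPCs it was down to 0.720%, 0.501% and 0.699%. The summed TPM of 6 smooth-muscle markers, Myh11, Cnn1, Actg2, Smtn, Synpo2 and Lmod1, was 319.9 to 429 in MEFs, where the share was high, 598.9 to 1467 with MyoD alone on day 10, 330 to 479.4 with F/R/C on day 10 and 254.5 to 268.1 in bulk iMPCs. Its part in the share of this isoform was not tested.

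Tpm1-216, the third cytoplasmic isoform, held 16.8%, 22.1% and 14.9% in MEFs, 14.4%, 12.1% and 12.2% with MyoD alone on day 10 and 9.64%, 8.07% and 7.24% with F/R/C on day 10. The F/R/C libraries were lower without overlap on 4 of the 5 days, and its usage over the 5 days did not pass the test (log2 -0.35 ± 0.15, adjusted p = 0.25). Tpm1-207 uses the last coding exon that lies just after the striated one in the gene, and the reads assigned to it rose on day 2 of MyoD alone. Tpm1-205, which rose as well, also carries all letters of that exon, so reads within it do not separate these isoforms. The share of Tpm1-207 was 5.39%, 4.95% and 5.30% in MEFs and 10.9%, 10.7% and 11.1% after 2 days of MyoD alone. Its usage rose by 1.35 ± 0.27 (log2, adjusted p = 0.0036). By day 10 of MyoD alone it was 6.56%, 4.62% and 6.64%, and the difference from MEFs did not pass the test (log2 0.36, adjusted p = 0.74). The day 2 call was lost without replicate 1 (adjusted p = 0.11), without replicate 2 (adjusted p = 0.16), with limma voom (adjusted p = 0.18) and with diffSpliceDGE (adjusted p = 1).

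**Figure D3:**
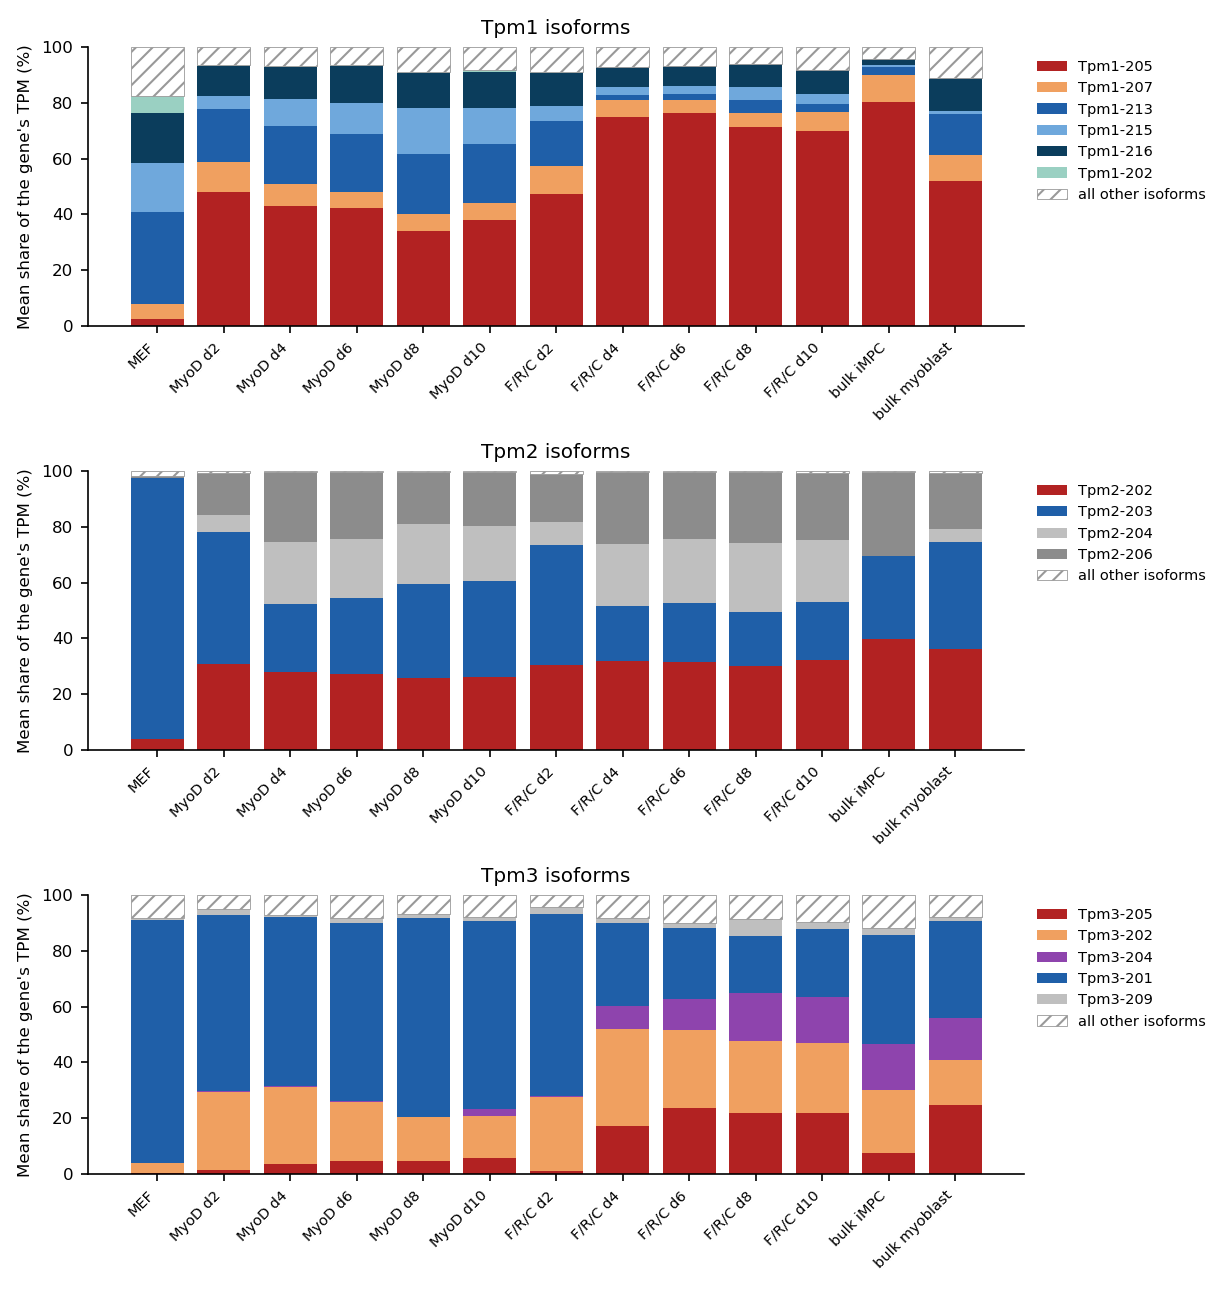
Mean share of each gene's TPM (percent, stacked to 100) held by each named isoform of Tpm1, Tpm2 and Tpm3 in the unsorted groups, with all other transcripts of the gene hatched. The cytoplasmic isoforms Tpm1-213, Tpm1-215 and Tpm1-216 take most of Tpm1 in MEFs, and Tpm1-205 takes most of it with F/R/C from day 4 and in bulk iMPCs.

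The gene's TPM was 1566, 2310 and 2709 in MEFs, 2160, 1796 and 1496 with MyoD alone on day 10, and 1436, 1438 and 2233 with F/R/C on day 10. At the level of whole genes Tpm1 was not called on day 10 with MyoD alone (log2 -0.41 ± 0.23, adjusted p = 0.18), and with F/R/C the difference was under 2-fold (log2 -0.70 ± 0.23, adjusted p = 0.012). Over the same comparison the TPM of Tpm1-205 went from 47.0, 49.6 and 62.3 in MEFs to 592, 1097 and 384.6 with MyoD alone and 867.6, 1017 and 1745 with F/R/C. Its level rose by 3.87 ± 0.54 (log2, adjusted p = 3.5e-06) and 4.65 ± 0.56 (log2, adjusted p = 2.0e-07). Among tropomyosin transcripts 11 of 38 were called at this level with MyoD alone on day 10, where 7.47% of all transcripts were, and 14 of 38 with F/R/C, where 15.4% were.

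Tpm2 encodes β-tropomyosin. Tpm2-202 joins the downstream internal exon to the striated last exon and is the skeletal-muscle form, and Tpm2-203 joins the upstream internal exon to the cytoplasmic last exon and is the form of fibroblasts and smooth muscle. In MEFs Tpm2-203 held 92.3%, 94.7% and 93.9% of Tpm2, and Tpm2-202 held 5.67%, 3.39% and 2.98%. After 2 days of MyoD alone Tpm2-202 was at 29.1%, 32.8% and 30.7%, and with F/R/C at 29.0%, 31.5% and 30.5%. All treated libraries lay above all MEF libraries. The usage of Tpm2-202 rose by 2.73 ± 0.14 with MyoD alone (log2, adjusted p = 1.1e-14) and by 2.75 ± 0.14 with F/R/C (adjusted p = 8.0e-15), which are the smallest p-values among the tropomyosin transcripts in these comparisons.

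On day 10 Tpm2-202 held 22.6%, 31.1% and 24.3% of Tpm2 with MyoD alone and 31.8%, 32.4% and 31.9% with F/R/C. The F/R/C libraries lay above those of MyoD alone on 3 of the 5 days, and over the 5 days its usage did not pass the test between the routes (log2 0.17 ± 0.06, adjusted p = 0.13). The usage of Tpm2-203 was 0.47 ± 0.11 (log2) lower with F/R/C over the 5 days (adjusted p = 0.010), under the 2-fold limit. Against MEFs Tpm2-203 fell by 1.39 ± 0.25 with MyoD alone on day 10 (adjusted p = 0.00083) and by 2.14 ± 0.26 with F/R/C (adjusted p = 1.1e-06). The call with MyoD alone was lost without replicate 2 (adjusted p = 0.12), in the fit of only these 2 groups (adjusted p = 0.14) and with diffSpliceDGE (adjusted p = 0.66), and the call with F/R/C was lost with diffSpliceDGE (adjusted p = 0.19).

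The lower share of Tpm2-203 came with a TPM near that of MEFs. Its TPM was 689.4, 939.1 and 1067 in MEFs, 1396, 1093 and 1034 with MyoD alone on day 10, and 694, 674.7 and 967 with F/R/C on day 10. Its level was not called in either comparison (log2 0.55, adjusted p = 0.21, and log2 -0.07, adjusted p = 0.92). In the same libraries the TPM of Tpm2-202 went from 42.3, 33.6 and 33.9 to 765.7, 1549 and 624.5 with MyoD alone and 990.3, 1311 and 1295 with F/R/C, a rise of 4.89 (log2, adjusted p = 5.8e-08) and 5.15 (adjusted p = 2.1e-08). Against MEFs on day 10, the level of Tpm2-202 was called and that of Tpm2-203 was not.

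A large part of Tpm2 was assigned to short transcripts, which limits how its shares can be read. Tpm2-204, a processed transcript of 337 bases without a coding frame, was at 0 in all 3 MEF libraries. It held 5.22%, 6.04% and 7.16% after 2 days of MyoD alone and 17.6%, 21.3% and 20.1% after 10 days. It was again at 0 in all bulk iMPC and all sorted libraries and in bulk myoblast replicates 2 and 3, and 14.6% in bulk myoblast replicate 1. All 337 of its bases lie in exons of Tpm2-202, and 160 of them in the untranslated part of that isoform, whereas only 177 lie in Tpm2-203. Tpm2-206, a fragment of 401 bases, held 0%, 0% and 2.10% in MEFs and 18.0%, 25.5% and 14.7% with MyoD alone on day 10, and 336 of its bases lie in Tpm2-202 and in Tpm2-203 alike.

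With transcripts of at least 500 bases only, the striated share of Tpm2 was 56.0 percentage points above MEFs with F/R/C on day 10, against 28.0 over all transcripts, and 39.6 points with MyoD alone, against 22.0. The mean difference between the routes over the 5 days was 10.5 points, against 3.60. The direction was the same in each case. For the striated shares of Tpm1 and Tpm3 the same setting moved no value by more than the spread between libraries.

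Tpm2 rose as a whole gene. Its TPM was 747, 991.4 and 1136 in MEFs, 3380, 4985 and 2569 with MyoD alone on day 10, and 3111, 4053 and 4057 with F/R/C on day 10. At gene level it rose by 1.84 ± 0.41 (log2, adjusted p = 0.00068) with MyoD alone on day 2, by 1.92 ± 0.41 (adjusted p = 0.00055) with MyoD alone on day 10 and by 2.03 ± 0.41 (adjusted p = 0.00011) with F/R/C on day 10. It was the only tropomyosin gene called with MyoD alone on either day, where 22.6% and 18.9% of all genes were called on days 2 and 10. The day 10 call with MyoD alone was lost without replicate 2 (log2 1.70, adjusted p = 0.064). Of the summed TPM of the 4 genes, Tpm1 took 50.01% in MEFs and 28.7% with F/R/C on day 10, and Tpm2 took 22.0% and 63.7%. The TPM of Tpm2 includes the short Tpm2-204 and Tpm2-206, so its TPM and these percentages carry the same limit. In F/R/C replicate 2 on day 10 these short transcripts held 1052 and 987.7 TPM on 2389 and 2556 estimated reads. Tpm2-202 held 1311 TPM there on 30677 estimated reads.

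**Figure D4:**
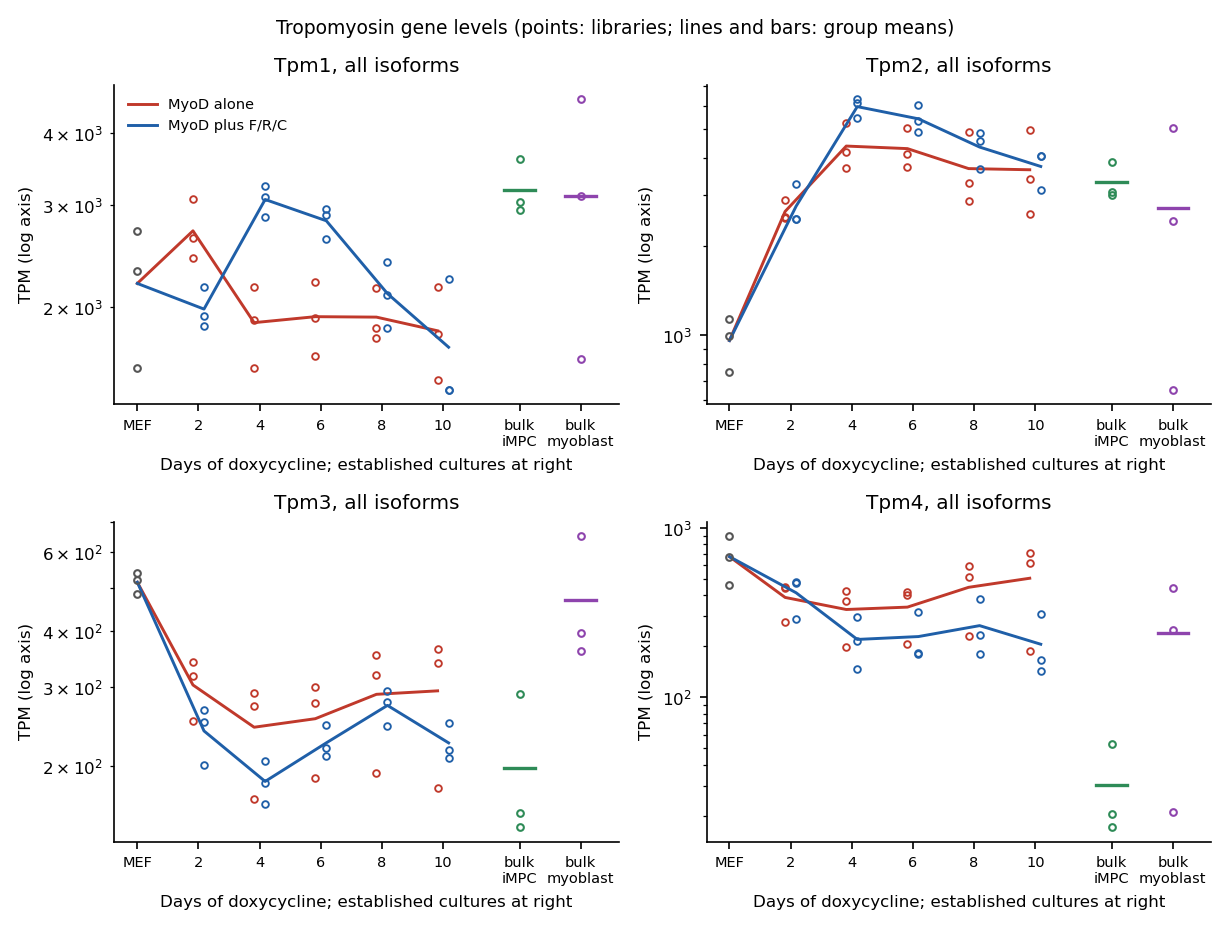
Summed TPM of Tpm1, Tpm2, Tpm3 and Tpm4 (vertical axis, log scale) by group, with 1 point per library and a line or bar at the mean of 3. Tpm2 sits between 747 and 1136 in MEFs and at 2470 or more in every MyoD library, while the mean of Tpm4 is lowest in bulk iMPCs, whose libraries sit at 17.1 to 53.2.

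Tpm3 encodes the slow-muscle α-tropomyosin as well as short cytoplasmic forms. Here the shares of exons at both ends of the transcript shifted in part, at the first exon mainly with F/R/C. Tpm3-201 joins the internal first exon to the cytoplasmic last exon, Tpm3-202 the internal first exon to the striated last exon, Tpm3-204 the distal first exon to the cytoplasmic last exon, and Tpm3-205 the distal first exon to the striated last exon, the form of slow muscle fibres. In MEFs Tpm3-201 held 88.6%, 89.3% and 84.0% of Tpm3. On day 2 of MyoD alone the striated last exon was at 22.5%, 36.3% and 29.0%, against 4.19%, 3.60% and 3.48% in MEFs, while the distal first exon was at 0.627%, 2.17% and 1.77%, against 0.486%, 0.650% and 0.384%. In the last exon all libraries lay above MEFs, while in the first exon the lowest of them lay inside the MEF range.

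Most of the striated last exon on day 2 was in Tpm3-202. It held 3.71%, 3.34% and 3.09% in MEFs, 21.9%, 35.0% and 27.2% after 2 days of MyoD alone and 24.6%, 32.0% and 22.3% after 2 days with F/R/C. Its usage rose by 3.06 ± 0.41 (log2, adjusted p = 1.4e-05) and by 2.96 ± 0.41 (adjusted p = 2.4e-05) against MEFs. On day 10 its share was 11.6%, 25.3% and 8.33% with MyoD alone and 25.8%, 28.1% and 21.5% with F/R/C. The routes overlapped in it on all 5 days, and the difference over the 5 days did not pass the test (log2 0.57 ± 0.17, adjusted p = 0.061).

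The distal first exon of Tpm3 was higher in the F/R/C cultures from day 4. On day 4 its share was 2.32%, 5.47% and 3.45% with MyoD alone and 10.9%, 34.8% and 31.2% with F/R/C. On day 10 it was 2.97%, 15.9% and 5.36% against 17.8%, 38.9% and 58.7%. From day 4 to day 10 the groups did not overlap, with F/R/C higher, and averaged over the 5 days the share was 23.3 percentage points higher.

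Both named isoforms that begin with this exon were called in the usage test over the 5 days. Tpm3-205, the slow-muscle form, held 7.41%, 18.6% and 39.1% of Tpm3 with F/R/C on day 10 and 2.97%, 11.3% and 2.31% with MyoD alone, and its usage rose by 1.92 ± 0.42 (log2, adjusted p = 0.0064). Without replicate 1 (log2 1.94, adjusted p = 0.13) or without replicate 3 (log2 1.47, adjusted p = 0.10) the call was lost. Tpm3-204, the long form with the cytoplasmic end, held 10.3%, 20.3% and 19.6% with F/R/C on day 10 against 0%, 4.60% and 3.04% with MyoD alone. It was listed at or near 0 in most libraries of MyoD alone up to day 8, and its usage rose by 5.89 ± 0.93 (log2, adjusted p = 0.00021). Since these controls are near 0, that fitted fold depends on the prior count and is no bound. Without replicate 3 its adjusted p was 0.054.

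On day 10 against MEFs 10 of 38 tropomyosin transcripts were called in usage with MyoD alone, 6 higher and 4 lower, where 1.34% of all transcripts were. With F/R/C 9 of 38 were called, 7 higher and 2 lower, where 1.81% were. The higher ones again included the short Tpm2-204 and Tpm2-206 in both routes. Tpm1-205, Tpm2-202 and Tpm3-202 were higher in both, and these 3 calls held without each replicate in turn on both days and in both routes. Their usage on day 10 rose by 4.14, 2.74 and 2.25 (log2) with MyoD alone and by 5.23, 3.02 and 3.14 with F/R/C. With only MEFs and day 10 of MyoD alone in the fit, none of the 3 kept its call (adjusted p of 0.071, 0.055 and 0.18), and for Tpm3-202 that call was also lost with limma voom (adjusted p = 0.061) and with diffSpliceDGE (adjusted p = 0.12). Tpm3-205 was called in both routes (log2 3.96 ± 1.04, adjusted p = 0.041, and log2 6.15 ± 1.14, adjusted p = 0.00091), but not without replicate 1, without replicate 2 or in fits of only the groups compared.

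The last exon of Tpm3 was mixed in both routes. The striated share with F/R/C on day 10 was 33.2%, 46.7% and 60.6%, and with MyoD alone 14.5%, 36.6% and 10.6%, so that the groups overlapped on that day. The F/R/C libraries lay above those of MyoD alone on 3 of the 5 days, and the mean difference over the 5 days was 19.7 percentage points. The main fibroblast form Tpm3-201 fell in level by 2.97 (log2, adjusted p = 0.0011) with F/R/C on day 10 against MEFs, from a TPM of 428.5, 481.1 and 437.4 to 99.1, 31.2 and 26.9. With MyoD alone on day 10 it was at 267.6, 80.9 and 288.8, which did not pass the test against MEFs (log2 -0.94, adjusted p = 0.41).

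Between the routes on day 10 the level of Tpm3-201 fell by 2.03 ± 0.63 (log2, adjusted p = 0.036), where it was the 1 tropomyosin transcript called and 6.62% of all transcripts were. That call was lost without any of the 3 replicates in turn (adjusted p from 0.095 to 0.29). Over the 5 days Tpm3-201 fell in level by 1.48 ± 0.28 (log2, adjusted p = 1.0e-04), and 7 of the 38 transcripts were called at this level, 2 higher and 5 lower, where 13.9% of all transcripts were. Its usage was 0.98 ± 0.21 (log2) lower (adjusted p = 0.0056), just under the 2-fold limit.

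As a gene Tpm3 was lower after MyoD with F/R/C. Its TPM was 483.8, 538.7 and 520.9 in MEFs, 339.6, 179.1 and 365.1 with MyoD alone on day 10, and 208.8, 217.5 and 250.2 with F/R/C on day 10. It fell by 1.35 ± 0.27 (log2, adjusted p = 0.00012) with F/R/C on day 10, where 34.9% of all genes were called. With MyoD alone the difference was under 2-fold (log2 -0.82 ± 0.27, adjusted p = 0.021). On day 2 with F/R/C it fell by 1.00 ± 0.27 (log2, adjusted p = 0.0047), where 20.5% of all genes were called, a change at the 2-fold limit that was not called without replicate 2 (log2 -0.82, adjusted p = 0.011).

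Tpm4 encodes a short cytoplasmic tropomyosin. It has 1 full coding isoform in the annotation, Tpm4-201, which held at least 96.8% of the gene in every library, so only its amount is described. Its TPM was 675.9, 891.4 and 460.6 in MEFs, 706.1, 187.4 and 618.4 with MyoD alone on day 10, and 308.8, 142.1 and 165.4 with F/R/C on day 10. It fell by 1.64 ± 0.60 (log2, adjusted p = 0.020) with F/R/C on day 10 against MEFs, and the call was lost without replicate 1 (adjusted p = 0.066) and without replicate 3 (adjusted p = 0.11). With MyoD alone it was not called (log2 -0.42, adjusted p = 0.61).

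No tropomyosin gene was called between the routes on day 2, on day 10 or over the 5 days, where 4.97%, 23.2% and 22.0% of all genes were called by edgeR. On these comparisons 1, 1 and 2 of the 4 genes had an unadjusted p under 0.05, and DESeq2 called none. Over the 5 days Tpm3 was 0.43 ± 0.12 lower (log2, adjusted p = 0.0024) and Tpm4 0.61 ± 0.26 lower (log2, adjusted p = 0.042) with F/R/C, both under the 2-fold limit. The F/R/C effect on the 4 genes did not pass the edgeR test for a change from day 2 to day 10, where 5.80% of all genes did, with 0 at an unadjusted p under 0.05 and 0 called by DESeq2.

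The bulk iMPCs were compared with day 10 of F/R/C, the latest time sampled with F/R/C. Tpm1-205 held 83.0%, 76.1% and 82.2% of Tpm1 in bulk iMPCs, and its usage against day 10 of F/R/C did not pass the test (log2 0.28 ± 0.41, adjusted p = 0.86). The 4 tropomyosin transcripts called in usage in this comparison were all lower in iMPCs. Of all transcripts 5.35% were called, 2370 lower and 570 higher. In level 4 of 38 were called, where 6.77% of all transcripts were. Tpm1-215 fell by 2.38 ± 0.70 (log2, adjusted p = 0.027), a call lost without any of the 3 replicates in turn (adjusted p from 0.10 to 0.18), with limma voom (adjusted p = 0.051) and with diffSpliceDGE (adjusted p = 0.19). Tpm1-216 fell by 1.74 ± 0.34 (adjusted p = 0.00054), from a share of 9.64%, 8.07% and 7.24% to 1.67%, 3.19% and 2.04%, and its adjusted p was 0.14 without replicate 1 and 0.45 with diffSpliceDGE. The other two were Tpm1-209, which begins with the internal first exon of Tpm1, has another last coding exon ahead of the cytoplasmic one and was named after its values were seen, and the short Tpm2-204.

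Tpm4 in bulk iMPCs was at 20.6, 53.2 and 17.1 TPM and fell by 2.80 ± 0.62 (log2, adjusted p = 0.0017) against F/R/C on day 10, where 9.78% of all genes were called. It was not called without replicate 1 (log2 -2.21, adjusted p = 0.14). The fibroblast marker sum was 337.2, 1130 and 487 in bulk iMPCs, and the iMPC library with the highest fibroblast sum also had the highest Tpm4. The part of fibroblast RNA in this difference was not tested.

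The 3 libraries of bulk primary myoblasts differed widely from each other. Tpm1-205 held 78.6%, 60.7% and 17.0% of Tpm1, the distal first exon of Tpm3 41.9%, 76.9% and 0.753%, and Tpm2-203 19.7%, 32.5% and 62.8% of Tpm2. Replicate 3, which had the low myotube sum given above, had the lowest share of the muscle forms and the highest of Tpm2-203, and its fibroblast marker sum was 4.80, against 15.4 and 13.5 in replicates 1 and 2. Its 4 muscle progenitor markers, Pax7, Myf5, Cdh15 and Itga7, summed to 739.8 TPM, against 1652 and 927.2. Tpm4 was at 250.1, 21.0 and 443 in the 3 libraries.

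Against these myoblasts 4 tropomyosin transcripts were called in usage in bulk iMPCs, all lower. Of all transcripts 3.42% were called, 1713 lower and 164 higher. In level 6 of 38 were called, all lower, where 8.92% of all transcripts were, 3432 lower and 1931 higher. Tpm1-216 fell by 2.02 ± 0.34 (log2, adjusted p = 0.00019) and was no longer called without bulk myoblast replicate 3 (log2 -0.95, adjusted p = 0.012). That call was also lost without replicate 1 (adjusted p = 0.074) or 3 (adjusted p = 0.23) of every group, in the fit of only these 2 groups (adjusted p = 0.47), with limma voom (adjusted p = 0.058) and with diffSpliceDGE (adjusted p = 0.58). Without that library, a setting added after seeing the data, 3 of the tropomyosin transcripts were called in usage and 7 in level. At the level of genes Tpm4 fell by 2.90 ± 0.63 (log2, adjusted p = 0.00063), where 19.8% of all genes were called, and it was not called without replicate 1 of every group (log2 -2.63, adjusted p = 0.052), without replicate 3 (log2 -1.79, adjusted p = 0.14) or in the fit of only these 2 groups (adjusted p = 0.12).

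The sorted Pax7-GFP-positive iMPCs and myoblasts overlapped in Tpm1-205. In sorted iMPCs Tpm1-205 held 34.0%, 49.3% and 42.7% of Tpm1, and in sorted myoblasts 34.2%, 46.9% and 70.7%. Tpm3-204 held 6.49%, 7.57% and 2.87% of Tpm3 in sorted iMPCs and 20.0%, 25.3% and 19.5% in sorted myoblasts, without overlap, and its usage did not pass the test (log2 -1.98 ± 1.46, adjusted p = 0.76). No tropomyosin transcript was called in usage, where 1.43% of all transcripts were, with 7 of 38 at an unadjusted p under 0.05. limma voom with diffSplice called 3 and edgeR diffSpliceDGE 0.

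In amount the 4 genes differed in direction between sorted iMPCs and sorted myoblasts. Tpm1 was at 416.3, 714.9 and 591.1 TPM against 2911, 2150 and 2807, and fell by 2.04 ± 0.24 (log2, adjusted p = 5.0e-08). Tpm2 was at 411.4, 578.4 and 607.9 against 909.2, 732.8 and 2047, and fell by 1.11 ± 0.40 (adjusted p = 0.021), a call lost without any of the 3 replicates in turn and in the fit of only these 2 groups. Tpm4 was higher in sorted iMPCs without overlap, at 203.1, 150.3 and 112.8 TPM against 88.4, 65.1 and 43.4, and did not pass the test (log2 1.34 ± 0.59, adjusted p = 0.062). Tpm3 overlapped (log2 0.16 ± 0.27, adjusted p = 0.65). In this comparison 30.1% of all genes were called. In level 10 of 38 tropomyosin transcripts were called, all lower, where 12.6% of all transcripts were, 4502 lower and 3102 higher. The myotube marker sum was 558.4, 1115 and 629.8 in sorted iMPCs and 2745, 3771 and 12180 in sorted myoblasts, and its part in the difference was not tested.

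The partners of tropomyosin on the actin filament were taken as lists chosen with earlier results of these data known. Of 10 sarcomeric thin filament genes, all 10 rose with MyoD alone on day 10 against MEFs, where 18.9% of all genes were called, with a median log2 change of 7.80 against -0.04 over all genes. They included Lmod2 (log2 10.75) and Lmod3 (log2 8.81), leiomodins that start thin filaments, Neb (log2 9.05), the nebulin that runs along them, and Klhl40 (log2 9.17), which protects them from breakdown. Over the 5 days 1 of the 10 was called between the routes, where 22.0% of all genes were, and this was Tmod4, a muscle tropomodulin that caps the pointed end next to tropomyosin. It rose with F/R/C by 2.87 (log2, adjusted p = 6.5e-06), with 5.23 ± 0.639 TPM on day 10 of MyoD alone and 19.1 ± 18.9 (SD, n = 3) with F/R/C.

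Of 17 cytoplasmic and smooth-muscle actin filament genes none was called with MyoD alone on day 10 against MEFs, where 18.9% of all genes were called. Their median was -0.40 against -0.04 over all genes. With F/R/C on day 10 against MEFs 11 fell and 1 rose, where 34.9% of all genes were called, with a median of -1.66 against 0.11 over all genes. Between the routes none of the 17 was called on day 2, where 4.97% of all genes were. On day 10 10 of the 17 fell with F/R/C against MyoD alone and none rose, where 23.2% of all genes were called. The median on day 10 was -1.24 against 0.02 over all genes. Over the 5 days 5 of the 17 fell with F/R/C against MyoD alone and none rose, a share near the 22.0% of all genes called, with a median of -0.86 against 0.02 over all genes. The 4 largest of these were Tagln (log2 -1.98), transgelin, Cald1 (log2 -1.58), caldesmon, Actn1 (log2 -1.45), the α-actinin of stress fibres, and Myh9 (log2 -1.38), non-muscle myosin heavy chain. The fibroblast marker sums given above differed between the same groups, and their part in this list was not tested. On day 10 Tagln was at 1916 ± 1306 TPM with MyoD alone and 241 ± 132 with F/R/C (SD, n = 3), and Cald1 at 738 ± 295 and 116 ± 48.7.

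Of 19 RNA-binding regulators of splicing 18 were tested. With MyoD alone on day 10 against MEFs 4 rose and 1 fell, where 18.9% of all genes were called, and the median was 0.06 against -0.04 over all genes. The risers were Rbfox1 (log2 9.10), Rbm20 (log2 6.57) and Rbm24 (log2 6.17), regulators of muscle exons, and Celf2 (log2 1.59). Over the 5 days 2 rose and 3 fell with F/R/C against MyoD alone, a share near the 22.0% of all genes called, with a median of 0.28 against 0.02. Over the 5 days Mbnl3, a muscleblind protein, rose by 2.20 (log2) and Rbm24 by 1.17 (log2). On day 10 alone Mbnl3 was at 3.63 ± 0.828 TPM with MyoD alone and 12.4 ± 4.16 with F/R/C. Rbm24 was at 115 ± 66.7 and 334 ± 40.5 on that day (SD, n = 3). Those that fell over the 5 days were Esrp2 (log2 -1.82), Nova2 (log2 -1.70) and Rbfox1 (log2 -1.12), and the mean TPM of Nova2 was at most 0.978 in every group.

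Across the means of the 13 unsorted groups, each tropomyosin gene was set beside the genes whose log2 CPM followed it most closely, as a description in which the points share libraries. Tpm1 was followed by Tor3a (r = 0.80), Vps37a (r = 0.79) and Cdc42ep3 (r = 0.76). Tpm2 was followed by Ccdc134 (r = 0.98), Larp4b (r = 0.98) and Enox1 (r = 0.97). Tpm3 was followed by Arhgap21 (r = 0.96), Rab34 (r = 0.95) and Emp3 (r = 0.95), and Tpm4 by Fbrs (r = 0.99), Ftl1-ps1 (r = 0.98) and Fkbp8 (r = 0.97).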

How the data were processed

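Per the submitters' processing notes, reads were handled with bcl2fastq 2.19, Trimmomatic 0.36 and kallisto 0.44 on GRCm38.p6, with edgeR 3.28 also named. Each deposited file lists, per the file headers, transcripts with their length, effective length, estimated counts and TPM. The estimated counts in the deposited files are the reads that kallisto assigns to each transcript, not normalized, and reads shared by isoforms are split by its model. The TPM values in the deposited files are those estimated counts divided by effective length and scaled within the library. How reads are split, and the fragment length behind the effective length, therefore bear on every isoform share, above all of short transcripts. Transcripts were placed in genes with GENCODE M21 (GRCm38), and 43 of the 45 tropomyosin transcripts had the same length there; Tpm4-201 and Tpm4-202 did not, so no Tpm4 structure or sequence is given. Sequences of first exons are not reported here.

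Estimated counts were rounded and tested with edgeR 4.0.16 (quasi-likelihood, TMM factors, all 15 groups in 1 fit, 30 residual degrees of freedom) on 60122 transcripts and 17310 genes that passed the filter on low counts, with Benjamini-Hochberg adjustment over all of them. Usage was tested on 54914 transcripts by the same model with the gene's reads plus 0.5 as offset. This test was chosen after seeing the data and replaced the planned edgeR diffSpliceDGE, which on simulated data for F/R/C against MyoD alone on day 10 recovered 4 of 200 transcripts changed 4-fold among 52178 and called 101 in other genes. The test used recovered 44 of the 200 and called 1 in another gene and 17 in the same genes. Exon classes were read from the coding exons of each transcript, and each isoform reaching a mean share of 5% in an unsorted group was named. From the gene lists up to 4 called genes per list and comparison with the largest changes were named. The members, lists and tests were chosen with earlier results of these data known.

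Replicate numbers paired libraries by the correlation of their deviations only for F/R/C against MyoD alone on day 2 (r from 0.346 to 0.375). Library depth is given with the samples, and errors are standard deviations or errors between libraries. Alternatives are given in the closing section. R 4.3.3, limma 3.58.1, DESeq2 1.42.0 and Python 3.11.15 were used.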

Additional observations from a re-analysis of the deposited data

How the results depend on the processing

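Of the 96 calls on named isoforms and genes, all 96 held with the replicate block, 92 with no filter on low counts, 58 of 58 with RLE factors and 11 of 11 with DESeq2. Fits of only the groups compared kept 71 of 94, limma voom 38 of 47, limma voom with diffSplice 25 of 38 and edgeR diffSpliceDGE, the test first planned and replaced after seeing the data, 27 of 38. Without replicate 1, 2 or 3 of every group, which leaves 2 libraries per group, 62, 64 and 65 of 96 held. RLE factors do not apply to usage. With the replicate block, level calls for F/R/C against MyoD alone on day 10 were 2 in place of 1, and usage calls over the mean of 5 days 7 in place of 4; correlations of same-numbered libraries over the 5 days ran from 0.061 to 0.375, so the numbers were not taken as pairs there, and on day 2, where they were, the block changed no call. The cause of the following changes was not tested.

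Counts of tropomyosin transcripts called in usage changed as follows. For MyoD alone on day 2, diffSpliceDGE gave 5 in place of 8. For MyoD alone on day 10, diffSpliceDGE gave 6, the fit of the 2 groups 1 and voom 5 in place of 10. For F/R/C on day 10 against MEFs the fit of the 2 groups gave 5 in place of 9. For F/R/C against MyoD alone, day 10 gave 2 with diffSpliceDGE and 4 with voom in place of 0, the mean of 5 days 10 with no minimum fold and 8 with voom in place of 4, and the change of the effect 2 with voom in place of 0. For bulk iMPCs, diffSpliceDGE gave 2 in place of 4 against F/R/C day 10, and against myoblasts diffSpliceDGE gave 2, voom 2 and the fit of the 2 groups 0 in place of 4. For sorted cells voom gave 3 in place of 0.

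In level, MyoD alone on day 10 gave 7 with the 2 groups only in place of 11, F/R/C on day 2 gave 11 with voom in place of 7, and iMPCs against myoblasts 0 with the 2 groups only in place of 6. F/R/C against MyoD alone gave on day 10 0 without a filter, 0 with the 2 groups only and 3 with voom in place of 1, and over 5 days 13 with no minimum fold in place of 7. Of the 4 genes, no minimum fold called 2 in place of 1 for MyoD alone on day 10 and for iMPCs in both comparisons, and 2 in place of 0 for F/R/C against MyoD alone over 5 days. For F/R/C on day 2 1 in place of 2 was called without a filter and with the 2 groups only, and for iMPCs against myoblasts 0 in place of 1 with the 2 groups only.

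The striated share of Tpm2 depended on how transcripts were weighed. F/R/C minus MyoD alone over 5 days was 3.60 percentage points, 7.35 from estimated counts and 10.5 from transcripts of at least 500 bases. MyoD alone on day 10 minus MEFs was 22.0, and 48.1 from estimated counts, 28.6 from coding transcripts only and 39.6 from transcripts of at least 500 bases. F/R/C on day 10 minus MEFs was 28.0, and 60.2, 37.5 and 56.0 under the same settings.

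Without 1 replicate number at a time, usage calls ran from 3 to 6 for MyoD alone on day 2, 4 to 8 on day 10, 3 to 5 for F/R/C on day 2, 5 to 7 on day 10, 0 to 5 for F/R/C against MyoD alone over 5 days, 1 to 3 for bulk iMPCs in each comparison and 0 to 1 for sorted cells. Level calls ran, in the same order of comparisons against MEFs, from 4 to 8, 4 to 7, 4 to 7 and 8 to 13, were 0 for F/R/C against MyoD alone on day 10 and 4 to 8 over 5 days, and ran from 1 to 3 for iMPCs against F/R/C day 10, 2 to 4 against myoblasts and 8 to 12 for sorted cells. Of the 4 genes, 0 to 1 were called for MyoD alone on day 10, 1 to 2 for F/R/C on day 2, 2 to 3 on day 10, 0 to 1 for F/R/C against MyoD alone on day 10, 0 to 2 for iMPCs in each comparison and 1 to 2 for sorted cells. For MyoD alone on day 10 minus MEFs the striated share of Tpm1 ran from 23.0 to 40.7 points, that of Tpm3 from 8.76 to 21.7 and the distal first exon of Tpm3 from 3.73 to 10.1, each lowest without replicate 2.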
